A study of Drosophila melanogaster with 14 samples.

Results

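The Drosophila genes described here carry only a CR number, the prefix given to annotated genes without an open reading frame that have not been given a name of their own. They are the 61 of 621 CR genes whose mean was at least 50 normalized counts in at least 1 of 3 groups of wt embryos, out of 15682 genes listed for these groups. CR43960 was left out of the choice. A normalized count is the number of reads on a gene divided by a size factor of the library. The levels in these 3 groups were used to select the members, which were chosen by these values alone, and they are given as a description. Members just inside the limit were CR43730 and CR42547, with highest group means of 50.5 and 52.6, and CR genes just outside it were CR43963 and CR43481, with 47.5 and 46.3. Limits of 25 and 100 would have given 80 and 41 members, and 304 CR genes were at 0 in all 6 libraries. In the table of mutant embryos, which played no part in the choice, 57 of the 61 members have a row and 56 passed the filter on low values. CR42871, CR43698, CR43699 and CR43790 have no row there, and CR43951 was below the filter.

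The study sequenced ribosome-depleted RNA of Oregon R embryos. Whole wt embryos of 0 to 45 min after egg laying, here early, were set beside a cytoplasmic and a nuclear extract of older wt embryos (90 to 180 min), here late, which the study staged as syncytial and blastoderm. Whole embryos of 0 to 180 min came from wt mothers and from mothers labelled as transheterozygous for grp fs1, Slbp 10/12 or Slbp 10/15, and the mutant mothers were crossed to wt Oregon R males, so that the mutation was maternal. Each of the 7 groups has 2 libraries of many pooled embryos, and no source used here states whether they are separate collections, which leaves the spread between libraries, possibly technical, as the error behind each p-value. grp encodes Chk1, the kinase of the DNA replication checkpoint that slows the cell cycles of the blastoderm, and Slbp encodes the stem-loop binding protein that processes the ends of histone mRNAs. The Slbp groups share allele 10.

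Long noncoding RNAs are transcribed and usually spliced and polyadenylated like mRNAs but are not translated into a known protein, and several act in the nucleus, as roX1 and roX2 do in the dosage compensation of the male X chromosome. Some are hosts of microRNAs, which are cut from the nuclear transcript. Hairpin RNAs fold back on long inverted repeats and are cut by Dicer-2 into small interfering RNAs, and antisense RNAs run against a gene on the other strand. In the early embryo maternal RNA is present from the egg and is degraded while the zygotic genome is switched on, so that a level can fall or rise with stage alone. For most CR genes no function is given in the sources used here.

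The wording long noncoding RNA held for only part of the set. In the deposited files 52 members are called ncRNA and 9 pseudogene. By the RefSeq gene table, in which all 61 were found by symbol or synonym, 33 are now long noncoding RNAs, 13 antisense RNAs, 3 hairpin RNAs and 10 pseudogenes, and CR43698 and CR43699 lie within the protein-coding gene CG44774. CR43432 has since been named lncRNA:marge. Of the 54 members found by gene ID in the BDGP6.54 annotation, a later build than the BDGP5.78 used for the counts, 7 lie on chromosome arm 2L, 9 on 2R, 15 on 3L, 9 on 3R, 2 on 4 and 12 on X. Exons of 30 overlap an exon of another gene by any number of bases, 9 overlap an intron only and 15 overlap nothing. In 5 of the 30 the exon overlap is only with microRNAs that the member hosts. The overlap is on the opposite strand for 19 members and on the same strand for 13. Whether reads were counted by strand is not stated, so that reads of a member and of a gene that overlaps it may not be told apart. No sequences are shown, since none were used here.

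Depth ran from 26817392 to 33866670 reads in the staged and fractionated libraries and from 17368684 to 23410870 in the mutant series. Some libraries stood apart. The snRNAs, which act in the nucleus, summed to 714919 and 1151180 normalized counts in the cytoplasmic and 73732 and 70197 in the nuclear extracts, against the names of the extracts, which are used here as labelled. The mRNAs of ribosomal protein genes, which are translated in the cytoplasm, had sums 2.76 to 6.53 times as high in a cytoplasmic as in a nuclear library, in the order of the names. Genes of the muscle sarcomere, which normally appear long after the blastoderm, summed to 37970.1 and 33916 in the early, 6275 and 33062 in the cytoplasmic and 44451 and 15659 in the nuclear libraries. In the mutant series the same list of genes summed to 25344 and 28419.6 for wt, 32.7 and 4317 in the grp fs1, 54.9 and 75.1 in the Slbp 10/12 and 135 and 115 in the Slbp 10/15 embryos. The sums were thus higher in wt than in any mutant library, and in grp fs1 replicate 2 than in replicate 1. Of the 16 genes of this list in the mutant table, 15 and 16 were above 0 in the wt libraries and 8 to 15 in the mutant ones. The part of older embryos in the differences reported here was not tested, and in whole embryos fewer cells of a type and less RNA per cell cannot be told apart.

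In the staged libraries a few members held most of the RNA. CR34335, CR43887, CR18854 and CR40469 made up 84.5% and 86.5% of the summed normalized counts of all members in the cytoplasmic and 46.7% and 51.4% in the nuclear libraries. CR34335, a transcript of 249 bases, had 8888 and 8911 normalized counts in early embryos, 85177 and 90556 in the cytoplasmic and 3742 and 4258 in the nuclear libraries. It was the most abundant member per length as well, with a mean of 936 FPKM in wt embryos of 0 to 180 min by the authors' values, against 135 for CR43887, 103 for CR40469 and 78.6 for the pseudogene CR14033. The cytoplasmic replicates of CR43887 differed widely, with 36106 and 105597 normalized counts. The mean was highest in the cytoplasmic extract for 37 members, in the nuclear extract for 17 and in early embryos for 7. At least 50 normalized counts were reached in all 3 groups by 38 members, only in the cytoplasmic extract by 5, only in the nuclear extract by 5 and only in early embryos by 0.

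**Figure D1:**
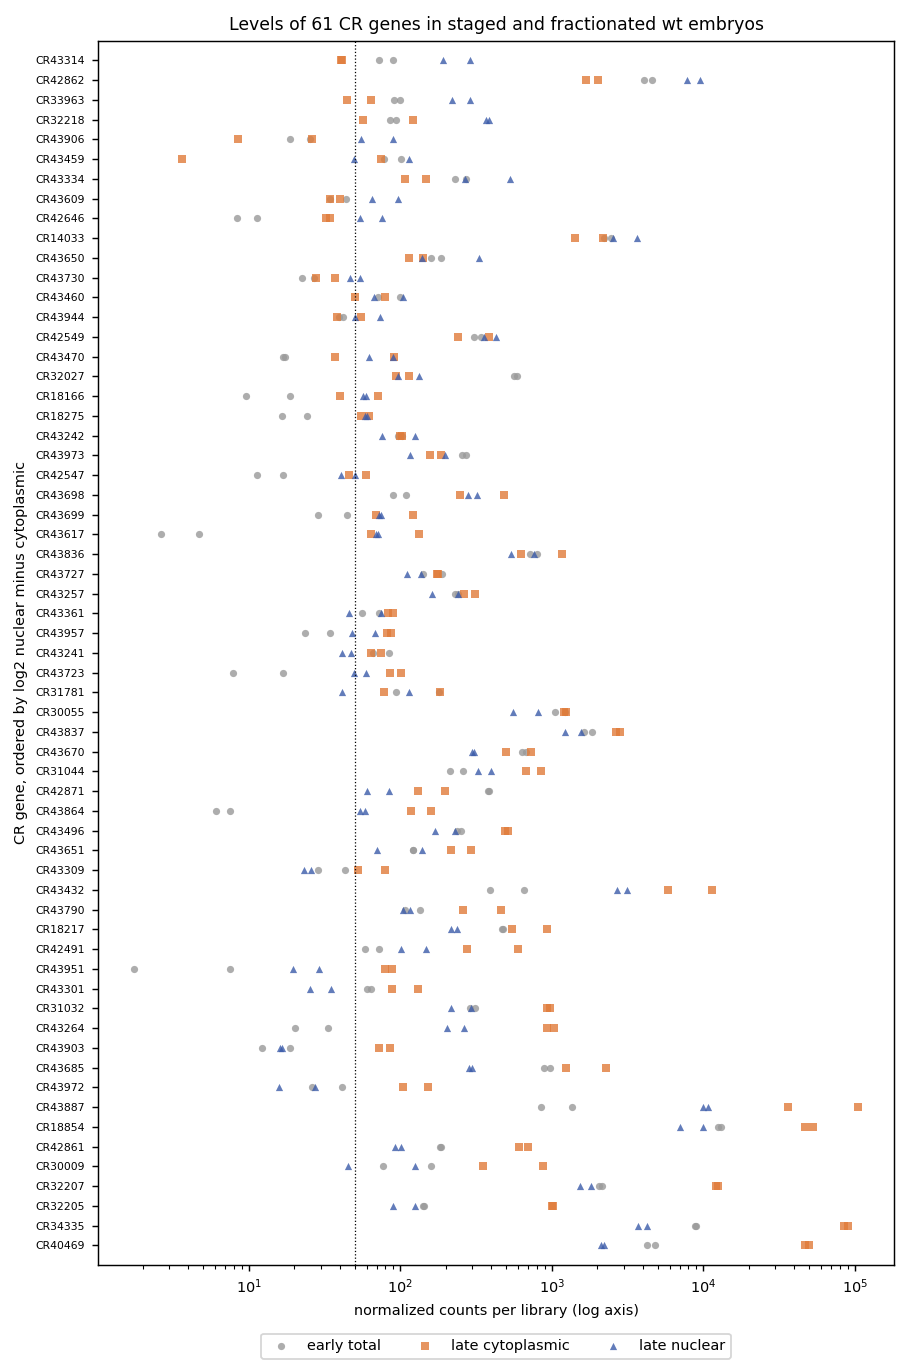
Normalized counts (log axis) of the 61 CR genes in each of the 2 early total, 2 late cytoplasmic and 2 late nuclear libraries, 1 point per library. Genes are ordered by the log2 difference of nuclear minus cytoplasmic, with the lowest at the bottom. The dotted line marks 50. CR40469, CR34335 and the hairpin RNAs lie at the bottom with cytoplasmic points to the right of the others, and CR43314, CR42862, CR33963 and CR32218 at the top with nuclear points to the right.

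The first comparison asked how the members were shared between the extracts. The log2 difference of nuclear minus cytoplasmic had a median of -0.64 over the 61 members and 0.24 over the 10335 genes tested. The libraries of the extracts did not overlap for 34 members that were higher in the cytoplasmic extract, against 36.3% of all genes, and for 10 that were higher in the nuclear extract, against 39.7%, and overlapped for 17. The rule used these levels. For the 42 members with an early mean of at least 50, which enter through the early libraries alone, the difference could be tested. By limma 22 of the 42 were higher in the cytoplasmic and 6 in the nuclear extract at an adjusted p under 0.05, against 38.2% and 28.9% of all genes with such an early level, which makes 67.1% called in either direction (28 of the 42 members) and is 55.5% over all genes tested. The median log2 difference over the 42 was -0.93, and -0.86 without nuclear replicate 1. That fit called fewer of the members and fewer of all genes. Upper quartile scaling gave 14 higher in the cytoplasmic and 6 in the nuclear extract, beside 33.8% and 34.9% of all genes with such an early level.

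Among the members with the lowest nuclear share were short RNAs and hairpin RNAs. CR40469 (chromosome X, 122493 to 122706 in BDGP6.54, with no overlapping gene) had 4782 and 4290.1 normalized counts in early embryos, 49642 and 46825 in the cytoplasmic and 2118 and 2233 in the nuclear extract, a log2 difference of -4.47 (SE 0.30, adjusted p = 1.9e-07). The difference of CR34335 was -4.46 (SE 0.32, adjusted p = 2.5e-07). CR42861 (chromosome X, 13744928 to 13745476), a transcript of 549 bases with no overlapping gene, had 696 and 605 in the cytoplasmic and 92.2 and 101 in the nuclear extract, a difference of -2.74 (SE 0.39, adjusted p = 2.6e-05). In none of these 3 genes did the extracts overlap. CR30009, of 2449 bases, also had a low nuclear share, at -2.86. The snRNAs, which act in the nucleus, were higher in the cytoplasmic extracts too. These differences thus describe the extracts as labelled and do not by themselves give the place of an RNA in the cell. The adjusted p-values here and below are from limma.

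The hairpin RNAs were alike in direction. CR18854 had 13174 and 12473 normalized counts in early embryos, 47038 and 53190.2 in the cytoplasmic and 6996 and 9944 in the nuclear extract. CR32207 had 2144 and 2058, 12075 and 12530.4 and 1542 and 1823 in the same order. CR32205 had 143 and 142, 1024 and 1008 and 89.2 and 125. All 3 were higher in the cytoplasmic extract, with log2 differences of -2.58 (SE 0.34, adjusted p = 1.3e-05), -2.87 (SE 0.29, adjusted p = 1.7e-06) and -3.26 (SE 0.39, adjusted p = 5.9e-06).

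A smaller group was higher in the nuclear extract. CR42862 (chromosome 3L, 224106 to 230964), with exons of 5485 bases, had 4050.0 and 4609 normalized counts in early embryos, 1684 and 2035 in the cytoplasmic and 9508 and 7773 in the nuclear extract, a difference of 2.21 (SE 0.30, adjusted p = 1.3e-05). CR43314, the host of mir-bft, had 41.0 and 40.8 against 288 and 191, a difference of 2.49 (SE 0.48, adjusted p = 3.7e-04). The libraries of the extracts stood well apart in both genes. CR33963 had 44.6 and 64.5 against 290.1 and 219, and CR32218 56.7 and 122 against 385 and 367, with differences of 2.21 (SE 0.47, adjusted p = 7.8e-04) and 2.16 (SE 0.47, adjusted p = 9.9e-04). CR43334 had 107 and 149 against 529 and 267 and a difference of 1.56 (SE 0.44, adjusted p = 0.006). CR14033 was the other member higher in the nuclear extract by the test, with a difference of 0.79 (SE 0.32, adjusted p = 0.043), and its libraries of 1424 and 2184 and 2555 and 3642 did not overlap. Of members with a lower early level, which were not tested, CR43906 had 8.45 and 26.3 in the cytoplasmic and 55.5 and 89.8 in the nuclear extract. The named nuclear RNAs roX1 and roX2 gave no such order, with 12215 and 15461 against 16374 and 12742 for roX1 and 559 and 1654 against 421 and 190.2 for roX2.

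Length was set beside the extracts for members with an early mean of at least 50. The 6 of them under 600 bases in the deposited table had a median log2 difference of -2.65, and in 5 the cytoplasmic libraries lay above the nuclear ones. In the other 33 with a length the median was -0.79, with 19 higher in the cytoplasmic and 6 in the nuclear extract without overlap. Among all genes of such an early level the medians were -0.80 for 262 genes under 600 bases and -0.21 for 6997 others. Spearman's rho between length and the log2 difference was 0.43 over the 39 members and 0.39 over the 7259 genes. These points come from the same 4 libraries and genes are not independent replicates. Over all 61 members, whose choice used these levels, the median by kind of gene was -2.87 for the 3 hairpin RNAs, -0.87 for 33 long noncoding RNAs, -0.78 for 10 pseudogenes, -0.21 for 13 antisense RNAs and 0.75 for the 5 members with a microRNA in an exon, which are among the long noncoding RNAs. With CR43836, which holds mir-31b in an intron, the median was 0.16 over 6 hosts.

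**Figure D2:**
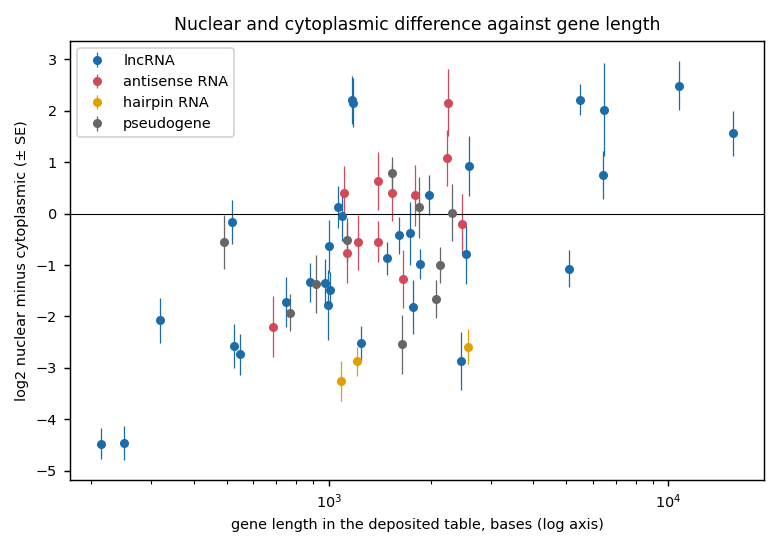
Log2 nuclear minus cytoplasmic difference (± SE from the limma fit) against gene length in bases (log axis) for the 57 CR genes with a length, coloured by kind of gene. CR40469 and CR34335 are the 2 points at the lower left near -4.5, the 3 hairpin RNAs lie near -3 and 5 of the 7 genes under 600 bases lie below -2.

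The comparison of late with early embryos describes how the levels of the members differed between these libraries. Late levels average the log2 values of the cytoplasmic and nuclear libraries, while early libraries are of whole embryos, so that stage and fractionation cannot be told apart. The log2 difference of late minus early had a median of 0.47 over the members and -0.08 over all genes. All 4 late libraries lay above both early ones in 18 members, against 12.8% of all genes, and below them in 3, against 6.29%, and 40 overlapped. The rule used these levels, so that nothing is read from these counts.

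CR43887, CR43432 and CR43264 were far higher in late than in early embryos, CR43887 by the largest difference of all members. CR43887 (chromosome 3L, 11693135 to 11693661, no overlapping gene) had 1366 and 856 normalized counts in early embryos, 36106 and 105597 in the cytoplasmic and 10042 and 10712 in the nuclear extract, a log2 difference of 4.55 (SE 0.36). CR43432 (chromosome 3L, 14976626 to 14977631), whose nearest other gene is Ocho, of the Bearded family of Notch pathway genes, had 393 and 662, 5869.9 and 11449 and 3156 and 2698, a difference of 3.26 (SE 0.31). CR43264 went from 33.6 and 20.1 to 1041 and 929.8 and 265 and 204, a difference of 4.15 (SE 0.37). Every late library of these 3 genes lay above every early one.

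CR43617, CR43864 and CR43951 were low in early embryos. CR43617 had 4.67 and 2.62 normalized counts there, 63.9 and 133 in the cytoplasmic and 72.0 and 69.6 in the nuclear extract, a difference of 4.17 (SE 0.53). CR43864 had 7.48 and 6.12, 118 and 161 and 54.7 and 58.3, and CR43951 7.48 and 1.75, 79.6 and 88.2 and 19.5 and 29.1, with differences of 3.52 (SE 0.48) and 3.25 (SE 0.59). The opposite order was rare. CR32027 had 565 and 589 in early embryos against 94.1 and 115 and 97.4 and 133 in the extracts, a difference of -2.40 (SE 0.36). CR42871 had 379 and 388 against 198 and 130.4 and 60.7 and 85.0, and CR43973 270.1 and 257 against 186 and 158 and 117 and 198, with differences of -1.83 (SE 0.38) and -0.70 (SE 0.37). These 3 were the members whose late libraries all lay below the early ones.

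In 3 members the replicates of the extracts differed in the same way as the sum of the sarcomere genes, which was 5.27 times as high in cytoplasmic replicate 2 as in replicate 1 and 2.84 times as high in nuclear replicate 1 as in replicate 2. CR43459, the host of mir-34 and mir-277, had 3.62 and 75.1 normalized counts in the cytoplasmic and 114 and 49.4 in the nuclear libraries. CR30009 had 354 and 873 and 126 and 45.3, and CR31781 78.4 and 183 and 115 and 41.3. In these 3 genes alone of the 61 both ratios were at least 2. In early embryos they had 101 and 78.7, 76.6 and 161 and 180.4 and 93.5. The part of older embryos in these levels was not tested.

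The mutant embryos were compared with wt of the same collection time. Against wt, 25 of the 56 members tested were lower and 5 higher in grp fs1 by limma at an adjusted p under 0.05, beside 28.7% lower and 14.3% higher among all 9868 genes tested (43.0% in all) and 23.4% and 17.7% among genes of any name that reached the same level of 50. In Slbp 10/12 23 were lower and 9 higher, beside 33.0% and 15.6% (48.6% in all) and 25.7% and 18.9% at that level, and in Slbp 10/15 31 were lower and 8 higher, beside 38.9% and 20.1% (58.9% in all) and 33.1% and 24.4% at that level. The median log2 fold changes of the members were -1.02, -0.73 and -0.79, against -0.10, -0.11 and -0.19 over all genes. These 3 comparisons share the wt libraries. Members lower by more than 2 log2 units and past the test numbered 17, 19 and 20 of the 56, beside 20.3%, 24.1% and 24.2% of all genes. In all 3 mutants 15 members were lower, beside 19.7% of all genes, and 12 passed the test in no mutant, beside 25.2%.

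These counts changed when single libraries were left out, and for such fits the median log2 fold change of the members is given. In grp fs1 it was -0.72 and -1.13 without its own replicate 1 or 2 and -0.95 and -0.94 without wt replicate 1 or 2. In Slbp 10/12 it was -0.81 and -0.52, and -0.79 and -0.67, in the same order. In Slbp 10/15 it was -0.85 and -0.84, and -0.88 and -0.81. Without either wt library fewer members and fewer of all genes were called in each mutant. In Slbp 10/15 the members' share of calls was then no higher than that of all genes. A fit without a library keeps 1 library in that group, whose spread is taken to be like that of the others. Upper quartile scaling moved the medians of all genes to -0.41, -0.49 and -0.56 and those of the members to -1.33, -1.11 and -1.17. It called 26, 30 and 34 members lower and 2, 5 and 5 higher, beside 38.2%, 52.7% and 53.1% of all genes lower and 1.78%, 1.76% and 2.41% higher. In Slbp 10/12 the members' share of lower calls under this scaling, 53.6%, was thus near that of all genes.

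Members with an early mean of at least 50 were set apart from those with a lower one. The early libraries also held sarcomere sums of 37970.1 and 33916, and the part of older embryos in early levels was not tested. Of the 39 with an early mean of at least 50, 19, 14 and 21 were lower and 4, 8 and 7 higher in grp fs1 and the Slbp groups 10/12 and 10/15, beside 21.5%, 23.2% and 31.1% lower and 18.6%, 19.9% and 25.7% higher among all genes of such a level. Of the 17 with a lower early mean, 6, 9 and 10 were lower and 1 was higher in each mutant, beside 53.7%, 66.2% and 66.7% lower and 2.05%, 2.51% and 2.74% higher among all genes chosen in the same way. In the group with an early level, 48.7%, 35.9% and 53.8% of members were thus called lower, and in the other group 35.3%, 52.9% and 58.8%.

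The counts by kind of gene are to be read beside the shares of all genes, which were 28.7%, 33.0% and 38.9% lower and 14.3%, 15.6% and 20.1% higher in the 3 mutants. Of the 31 long noncoding RNAs, 18, 14 and 21 were lower and 2, 4 and 3 higher in grp fs1 and the Slbp groups 10/12 and 10/15. Of 12 antisense RNAs 3, 6 and 6 were lower, which is 25%, 50% and 50%, and 1 was higher in each. Of 10 pseudogenes 3, 2 and 3 were lower and 1, 2 and 2 higher. The share of lower calls was near or below that of all genes for the pseudogenes. For the antisense RNAs it was below that of all genes in grp fs1 and above it in both Slbp groups. Of 15 members that overlap no other gene, 6, 5 and 9 were lower and 2, 3 and 3 higher, with a share of lower calls in Slbp 10/12 like that of all genes. Of the 12 genes tested from a list of named noncoding RNA genes that holds roX1, Hsromega and the Uhg host genes of small nucleolar RNAs, 10, 9 and 8 were lower and 0 higher. The sarcomere list had 10, 15 and 15 of 15 genes lower, and a list of neuron genes 6, 5 and 5 of 6. The part of older embryos in the falls of members was not tested.

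**Figure D3:**
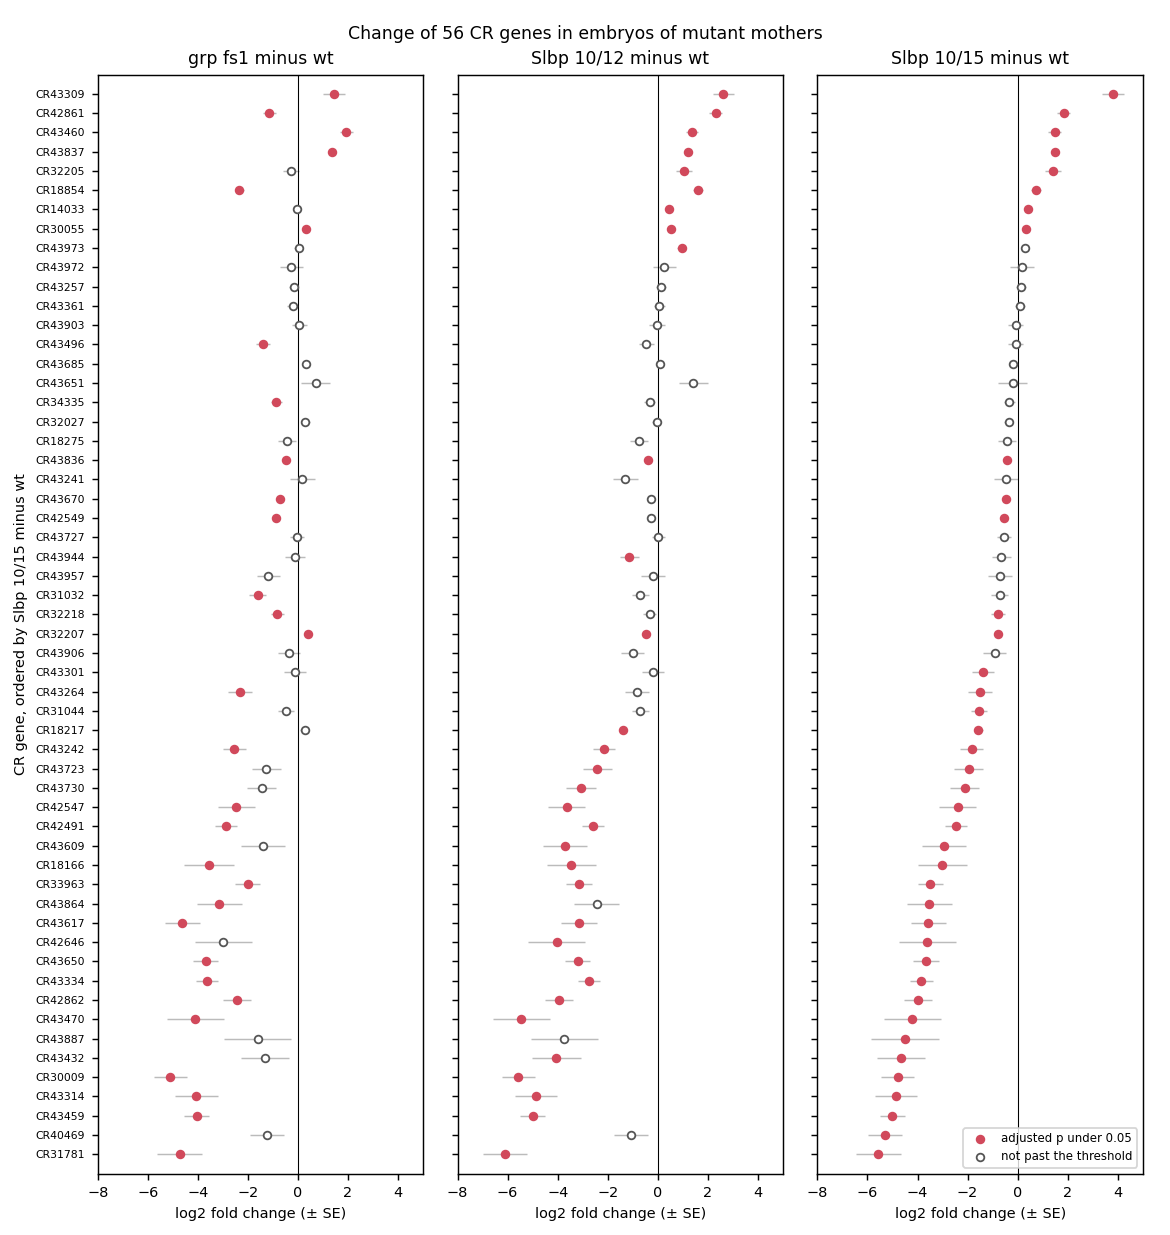
Log2 fold change against wt (± SE from the limma fit) of the 56 CR genes tested in grp fs1 and the Slbp groups 10/12 and 10/15, ordered by the value in Slbp 10/15, with filled points for an adjusted p under 0.05. The lower part of each panel holds most of the falls of more than 2 log2 units, CR18854 and CR42861 lie left of 0 in grp fs1 and right of it in the Slbp groups, and CR40469 is far lower in Slbp 10/15 (-5.29) than in Slbp 10/12 (-1.07).

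The hairpin RNAs did not move as a group. CR18854 had 3637 and 3834 normalized counts in wt, 679 and 798 in the grp fs1, 11399 and 11372 in the Slbp 10/12 and 4938 and 7779.8 in the Slbp 10/15 embryos. None of these groups overlapped. It fell in grp fs1 with a log2 change of -2.34 (SE 0.19, adjusted p = 3.7e-04) and rose in Slbp 10/12 by 1.61 (SE 0.19, adjusted p = 0.0012) and in Slbp 10/15 by 0.73 (SE 0.19, adjusted p = 0.014), and the difference of grp fs1 from the mean of the Slbp groups was -3.51 (SE 0.16, adjusted p = 2.4e-05). CR32205 had 65.2 and 89.4 in wt and 74.6 and 51.8 in grp fs1, which overlapped, and 169 and 151 and 165 and 258 in the Slbp groups. It rose in Slbp 10/12 by 1.06 (SE 0.33, adjusted p = 0.032) and in Slbp 10/15 by 1.42 (SE 0.33, adjusted p = 0.0091), with a value of -0.29 (SE 0.33, adjusted p = 0.49) in grp fs1.

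CR32207 went the other way. It had 1390.4 and 1398 normalized counts in wt, 1944 and 1742 in the grp fs1, 1028 and 994 in the Slbp 10/12 and 753 and 850.2 in the Slbp 10/15 embryos. Its rise in grp fs1 was 0.40 (SE 0.09, adjusted p = 0.011), its changes in the Slbp groups -0.46 (SE 0.09, adjusted p = 0.0051) and -0.80 (SE 0.09, adjusted p = 8.9e-04), and the difference of grp fs1 from the Slbp mean 1.03 (SE 0.07, adjusted p = 1.7e-04). CR42861, the short transcript on X that was higher in the cytoplasmic extract, moved in the same directions as CR18854. It had 47.7 and 58.9 in wt, 22.4 and 24.5 in the grp fs1, 292 and 244 in the Slbp 10/12 and 203 and 180.1 in the Slbp 10/15 embryos, with no overlap of any mutant with wt. Its log2 fold changes were -1.15 (SE 0.26, adjusted p = 0.013), 2.31 (SE 0.26, adjusted p = 0.0011) and 1.83 (SE 0.26, adjusted p = 0.0018), and that of grp fs1 against the Slbp mean was -3.22 (SE 0.23, adjusted p = 1.6e-04).

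Hosts of microRNAs were lower or did not pass the test. CR43314, whose mir-bft is the bereft microRNA, had 105 and 121 normalized counts in wt and 2.80 and 11.3, 1.83 and 4.37 and 6.59 and 0.990 in grp fs1 and the Slbp groups 10/12 and 10/15. CR43650, the host of mir-8, had 116 and 112 in wt and 7.46 and 8.48, 13.7 and 9.61 and 5.49 and 11.9. In both genes all mutant libraries lay far below wt, with log2 fold changes of -4.05 (SE 0.84, adjusted p = 0.0097), -4.87 (SE 0.84, adjusted p = 0.0041) and -4.87 (SE 0.84, adjusted p = 0.0034) for CR43314 and -3.69 (SE 0.51, adjusted p = 0.0023), -3.21 (SE 0.51, adjusted p = 0.003) and -3.66 (SE 0.51, adjusted p = 0.0017) for CR43650. CR43459, the host of mir-34 and mir-277, had 23.3 and 41.5 in wt and 0.933 and 0.942 in grp fs1 and was at 0 in all 4 Slbp libraries. At a floor of 3 reads per library it was at least 12.1-fold lower in Slbp 10/12 and at least 10.3-fold lower in Slbp 10/15.

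The other hosts with a microRNA in an exon passed the test in 1 mutant or none. CR31044, which holds mir-279 and mir-996, had 201 and 237 normalized counts in wt, 177 and 137 in the grp fs1, 97.9 and 184 in the Slbp 10/12 and 67.0 and 82.2 in the Slbp 10/15 embryos, and passed the test only in Slbp 10/15, with -1.54 (SE 0.33, adjusted p = 0.0072). CR43651, the host of mir-14, had 74.5 and 50.2 in wt, 135 and 74.4 in the grp fs1, 104 and 257 in the Slbp 10/12 and 35.1 and 80.2 in the Slbp 10/15 embryos and passed in none. CR43836, which holds mir-31b in an intron, had 515 and 503 in wt, 355 and 382 in the grp fs1, 403 and 366 in the Slbp 10/12 and 355 and 404 in the Slbp 10/15 embryos and passed in each, with -0.46 (SE 0.12, adjusted p = 0.02), -0.41 (SE 0.12, adjusted p = 0.027) and -0.43 (SE 0.12, adjusted p = 0.019). Of the 6 hosts, 4, 4 and 5 were thus lower and 0 higher in grp fs1 and the Slbp groups 10/12 and 10/15. Of the 5 with a microRNA in an exon, 3, 3 and 4 were lower. Among all genes 28.7%, 33.0% and 38.9% were lower and 14.3%, 15.6% and 20.1% higher. The hosts were named after their values were seen. Host levels count reads on the whole gene and not the mature microRNA.

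**Figure D4:**
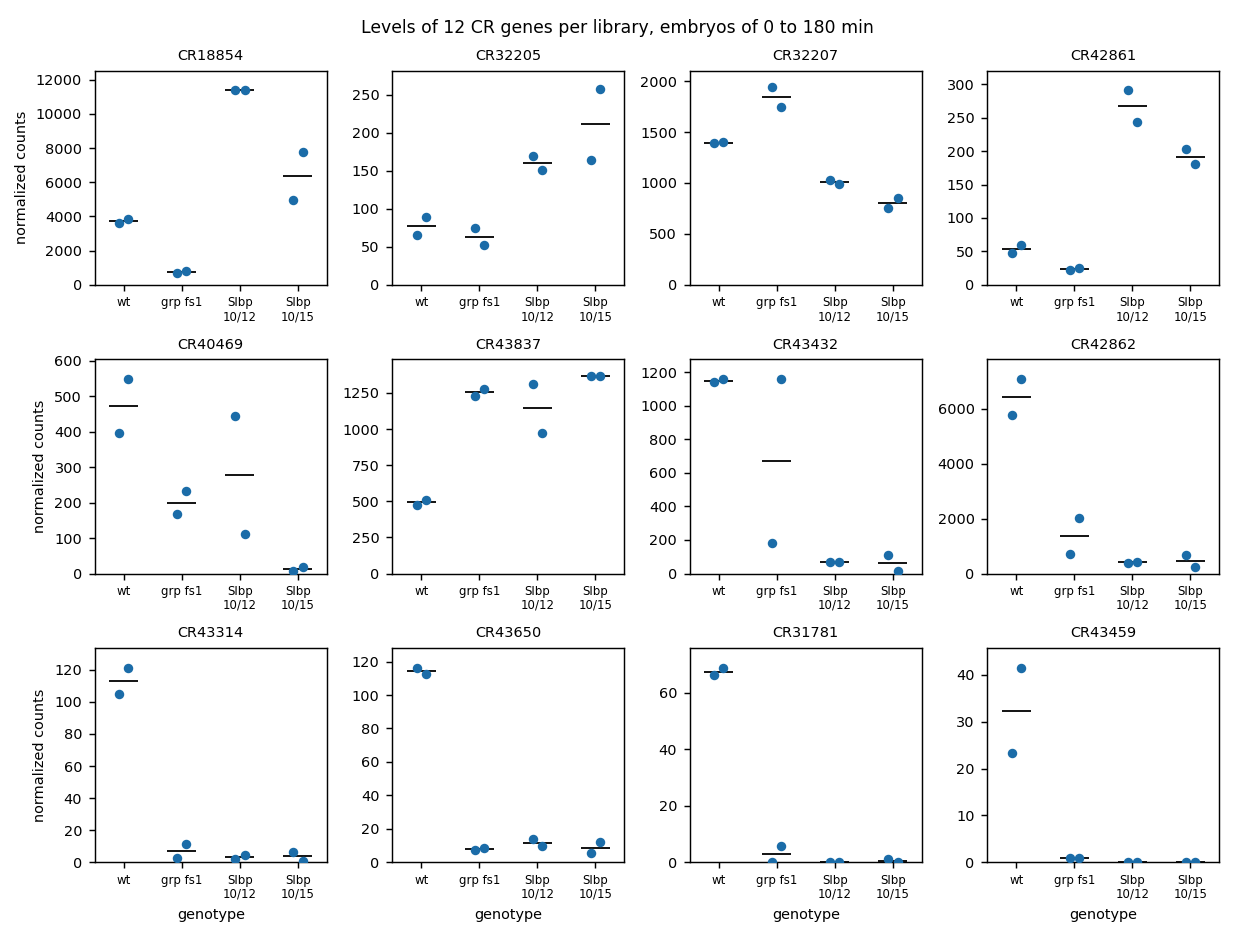
Normalized counts of 12 CR genes in each library of wt, grp fs1 and both Slbp groups, all collected over 0 to 180 min, with each of the 2 libraries as a point and their mean as a line, each panel on its own linear axis from 0. CR18854 and CR42861 are lowest in grp fs1 and highest in Slbp 10/12, CR43837 is above wt in all mutants, and CR43432 is near the wt level in only 1 of the grp fs1 libraries.

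Members with higher late levels differed among the mutants. CR43432 had 1139 and 1157 normalized counts in wt, 183 and 1156 in the grp fs1, 68.6 and 67.3 in the Slbp 10/12 and 109 and 17.8 in the Slbp 10/15 embryos. It fell in Slbp 10/12 with a log2 change of -4.06 (SE 0.98, adjusted p = 0.013) and in Slbp 10/15 with -4.66 (SE 0.98, adjusted p = 0.0066), and grp fs1 was higher than the Slbp mean by 3.04 (SE 0.85, adjusted p = 0.028), which became 1.72 (adjusted p = 0.19) without grp fs1 replicate 2. In grp fs1 itself the value was -1.32 (SE 0.98, adjusted p = 0.3). CR43887 had 1545 and 1508 in wt, 227 and 1093 in the grp fs1, 125 and 103 in the Slbp 10/12 and 332 and 12.9 in the Slbp 10/15 embryos, and passed only in Slbp 10/15, with -4.49 (SE 1.35, adjusted p = 0.024). In both genes grp fs1 replicate 2, the library with the higher sum of sarcomere genes, was the higher one, as it was for CR42862. The part of that difference between the libraries was not tested.

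CR43264 had 44.2 and 56.7 normalized counts in wt, 7.46 and 11.3 in the grp fs1, 36.6 and 21.0 in the Slbp 10/12 and 18.7 and 15.8 in the Slbp 10/15 embryos. It was lower in grp fs1, at -2.32 (SE 0.48, adjusted p = 0.0094), and in Slbp 10/15, at -1.49 (SE 0.48, adjusted p = 0.032), while Slbp 10/12 gave -0.83 (SE 0.48, adjusted p = 0.19). CR43617 had 24.4 and 22.9 in wt and was at 0 in both grp fs1 libraries, at least 8.42-fold lower at a floor of 3 reads per library. Its levels were 1.83 and 1.75 in the Slbp 10/12 and 3.29 and 0 in the Slbp 10/15 embryos.

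Of the 6 members called higher in the nuclear extract, 4 were lower in each mutant, namely CR42862, CR43314, CR33963 and CR43334. Among all genes with an early mean of at least 50 that were called higher in that extract, 24.2% were lower in each mutant. CR42862 had 5755 and 7076 normalized counts in wt, 699.8 and 2002 in the grp fs1, 389.9 and 437 in the Slbp 10/12 and 663 and 241 in the Slbp 10/15 embryos. No mutant library reached wt, and its log2 fold changes were -2.43 (SE 0.56, adjusted p = 0.014), -3.95 (SE 0.56, adjusted p = 0.0023) and -3.99 (SE 0.56, adjusted p = 0.0018). CR33963 had 83.8 and 94.9 in wt against 18.7 and 24.5, 11.9 and 6.99 and 9.88 and 4.95, and CR43334 204 and 275 against 16.8 and 19.8, 24.7 and 47.2 and 18.7 and 12.9. Both were called lower in each mutant, at -2.01, -3.15 and -3.49 log2 units for CR33963 and -3.63, -2.75 and -3.85 for CR43334. The other 2 were CR32218 and CR14033. CR32218 had 130.3 and 145 in wt and 112 and 107 in Slbp 10/12, and did not pass there. It was lower in grp fs1, at -0.82 (SE 0.27, adjusted p = 0.045), and in Slbp 10/15, at -0.79 (SE 0.27, adjusted p = 0.039). CR14033 had 2659.8 and 2509 in wt, 2329 and 2734 in the grp fs1, 3861 and 3164 in the Slbp 10/12 and 3498 and 3395 in the Slbp 10/15 embryos. It rose by 0.44 (SE 0.11, adjusted p = 0.016) in Slbp 10/12 and by 0.42 (SE 0.11, adjusted p = 0.015) in Slbp 10/15. Its value in grp fs1 was -0.03 (SE 0.11, adjusted p = 0.82).

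CR31781 and CR30009, whose extract replicates differed as the sarcomere sum did, were low in the mutants. CR31781 had 66.3 and 68.7 normalized counts in wt, 0 and 5.65 in grp fs1, 0 in both Slbp 10/12 libraries and 1.10 and 0 in Slbp 10/15. CR30009 had 48.9 and 44.7 in wt, 0.933 and 0 in grp fs1, 0 in both Slbp 10/12 libraries and 0 and 1.98 in Slbp 10/15. At a floor of 3 reads per library they were at least 25.2-fold and at least 17.4-fold lower in Slbp 10/12. They passed the test in grp fs1 with -4.73 (SE 0.89, adjusted p = 0.0067) and -5.10 (SE 0.65, adjusted p = 0.0018) and in Slbp 10/15 with -5.56 (SE 0.89, adjusted p = 0.0026) and -4.79 (SE 0.65, adjusted p = 0.0016). The part of older embryos was not tested here either.

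Few members rose. CR43837 (chromosome X, 6995882 to 6997799, no overlapping gene) had 474 and 511 normalized counts in wt, 1229 and 1279.8 in the grp fs1, 1315 and 975 in the Slbp 10/12 and 1367 and 1365 in the Slbp 10/15 embryos. Every mutant library lay well above wt, with log2 fold changes of 1.35 (SE 0.13, adjusted p = 8.5e-04), 1.20 (SE 0.13, adjusted p = 0.001) and 1.47 (SE 0.13, adjusted p = 6.2e-04). The antisense RNA CR43460 had 43.1 and 36.0 in wt against 149 and 157, 114 and 92.6 and 109 and 115, and rose by 1.93 (SE 0.25, adjusted p = 0.002), 1.36 (SE 0.25, adjusted p = 0.0053) and 1.48 (SE 0.25, adjusted p = 0.0033).

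CR43309, a pseudogene in the later annotation, had 19.8 and 8.73 normalized counts in wt, 34.5 and 41.4 in the grp fs1, 98.9 and 75.1 in the Slbp 10/12 and 206 and 192 in the Slbp 10/15 embryos. It rose by 1.45 (SE 0.43, adjusted p = 0.032), 2.62 (SE 0.43, adjusted p = 0.0035) and 3.81 (SE 0.43, adjusted p = 0.001), and was lower in grp fs1 than in the Slbp mean, with a log2 difference of -1.77 (SE 0.37, adjusted p = 0.01). CR30055 rose by less, from 774 and 749 in wt to 1023 and 895, 1061 and 1111 and 974 and 923, with log2 fold changes of 0.33, 0.51 and 0.32. CR43973, which was higher in early than in late embryos, had 265 and 231 in wt and 450.3 and 511 in Slbp 10/12, a rise of 0.95 (SE 0.17, adjusted p = 0.0042). With upper quartile scaling, CR30055 had a value of 0.02 and CR32207 of 0.09 in grp fs1, and neither passed there.

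CR40469 was the member that set the Slbp groups apart. It had 396 and 548 normalized counts in wt, 167 and 232 in the grp fs1, 445 and 110.1 in the Slbp 10/12 and 6.59 and 17.8 in the Slbp 10/15 embryos. The Slbp 10/12 libraries lay above those of Slbp 10/15 but were far apart themselves. Against wt its log2 fold change was -5.29 (SE 0.68, adjusted p = 0.0014) in Slbp 10/15 and -1.07 (SE 0.68, adjusted p = 0.23) in Slbp 10/12, and the difference between the Slbp groups was 4.22 (SE 0.68, adjusted p = 0.027). It was the only 1 of 56 members called between these groups, beside 3.29% of all genes, and was called in none of the fits without Slbp 10/12 replicate 1, Slbp 10/15 replicate 1, grp fs1 replicate 1 or either wt library. CR34335, the other short and abundant transcript, had 4687 and 5311 in wt, 2687 and 2819.6 in the grp fs1, 5209 and 3067 in the Slbp 10/12 and 3576 and 4420.4 in the Slbp 10/15 embryos and was lower only in grp fs1, with a value of -0.86 (SE 0.23, adjusted p = 0.022).

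Between grp fs1 and the mean of the Slbp groups, 7 members were higher and 9 lower in grp fs1, beside 19.4% and 16.3% of all genes (35.7% in all). The median log2 difference of the members was 0.09, and 0.04 without Slbp 10/12 replicate 1 or grp fs1 replicate 1. In both of these fits fewer members and fewer of all genes were called. Besides the genes above, the pseudogene CR18217 had 342 and 379 normalized counts in wt, 464 and 404 in the grp fs1, 127 and 146 in the Slbp 10/12 and 115 and 127 in the Slbp 10/15 embryos. Only the Slbp libraries lay below wt, and the difference of grp fs1 from the Slbp mean was 1.75 (SE 0.14, adjusted p = 2.9e-04). CR43496 had 124 and 110.2 in wt, 40.1 and 47.1 in the grp fs1, 93.4 and 77.8 in the Slbp 10/12 and 95.5 and 128 in the Slbp 10/15 embryos, with a difference of -1.14 (SE 0.25, adjusted p = 0.011).

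The 12 members that passed in no mutant were CR18275, CR32027, CR43241, CR43257, CR43361, CR43651, CR43685, CR43727, CR43903, CR43906, CR43957 and CR43972. CR43685 had 576 and 545 normalized counts in wt, 736 and 658 in the grp fs1, 637 and 556 in the Slbp 10/12 and 550.0 and 436 in the Slbp 10/15 embryos. CR32027, which was higher in early than in late embryos, had 223 and 273 in wt, 287 and 320.2 in the grp fs1, 232 and 245 in the Slbp 10/12 and 172 and 215 in the Slbp 10/15 embryos. In both genes the grp fs1 libraries lay above wt and above the Slbp groups, and grp fs1 against the Slbp mean passed, with 0.37 (SE 0.12, adjusted p = 0.049) and 0.50 (SE 0.16, adjusted p = 0.042). Both calls ended with edgeR, at 0.060 and 0.055, with DESeq2, at 0.072 and 0.062, and with upper quartile scaling, at 0.070 and 0.093. The antisense RNA CR43257 had 166 and 191 in wt, 161 and 154 in the grp fs1, 218 and 174 in the Slbp 10/12 and 189 and 204 in the Slbp 10/15 embryos. A value that missed the threshold does not show that a member was at the same level in these groups.

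Members were also set beside the gene that shares their exons. In 16 pairs of 15 members the overlap was at least 20% of the member's exon bases in BDGP6.54. Exons of CR43470 lie to 71.7% over CG14830 on the other strand, and it had 54.7 and 64.4 normalized counts in wt and 0 and 11.3, 0.915 and 0 and 4.39 and 0.990 in grp fs1 and the Slbp groups 10/12 and 10/15. Its log2 fold changes were -4.10, -5.45 and -4.20 and those of CG14830 -3.47, -4.74 and -4.17 in the same order, with the same direction in each mutant. CR42491 shares 50.5% of its exon bases with RpL22, a ribosomal protein gene, on the same strand. It had 86.1 and 80.7 in wt and 8.40 and 13.2, 13.7 and 12.2 and 12.1 and 16.8 in the mutants, with changes of -2.87, -2.60 and -2.47, while RpL22 had 0.00, -0.32 and -0.03.

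Other pairs had unlike values. CR42547 overlaps CG15674 on the other strand over 57.3% of its exon bases and had log2 fold changes of -3.65 in Slbp 10/12 and -2.39 in the 10/15 group, against 2.05 and 2.68 for CG15674. CR43906 overlaps CG13377 over 50.8% and had -0.35 in grp fs1 against -4.03. CR43836 overlaps CG10962 on the same strand over 29.3% and had -0.46 in grp fs1 against -7.29. CR43361, a pseudogene over unc-13, had a nuclear minus cytoplasmic difference of -0.55 against 3.03. Over 15 pairs with both genes tested, Spearman's rho of the log2 fold changes was 0.39 for grp fs1, 0.10 for Slbp 10/12 and 0.35 for Slbp 10/15, values over genes of the same libraries. How far reads of 1 gene of a pair were counted on the other was not tested.

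**Figure D5:**
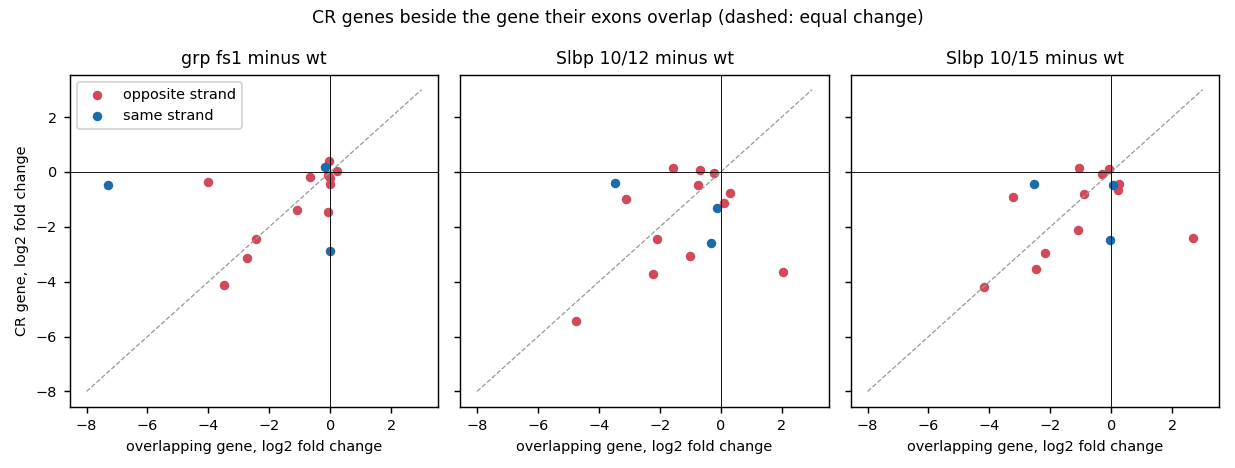
Log2 fold change against wt of each CR gene (vertical axis) and of the gene that overlaps at least 20% of its exon bases (horizontal axis) in grp fs1 and the Slbp groups 10/12 and 10/15, coloured by strand, with a dashed line where both changes are equal. CR43470 lies near the line in each panel, and CR42491, at -2.87 beside 0.00 for RpL22 in grp fs1, lies below it.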

How the data were processed

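RNA of 7 groups of embryos, 2 libraries each, was measured. According to the paper's methods and the notes of the submitters, the authors depleted ribosomal RNA (RiboMinus), checked reads with FastQC 0.10.1, aligned them to BDGP5.78/dm3 (TopHat) and counted reads on genes with featureCounts, with no strand setting given in the sources used here. The deposited signal is the normalized count, which the authors made by dividing by 1 size factor per library (DESeq or DESeq2). The deposited FPKM were used only as levels per length. The test was limma 3.58.1 in R 4.3.3, applied to log2(normalized count + 1) of genes that reached a mean of 5 in any group, which understates changes of low genes, with a trended variance, all groups of a table and no block, two-sided, Benjamini-Hochberg over all genes, at an adjusted p under 0.05. Whole reads were recovered from 100% of values within 0.01 reads and gave depth and the alternatives edgeR 4.0.16 and DESeq2 1.42.0. edgeR called 1993 genes higher and 1846 lower for grp fs1, 2267 and 2583 for Slbp 10/12 and 2445 and 2951 for Slbp 10/15, with 25, 31 and 36 members among them. Low genes rest on few reads, and limits from 3 reads cover counting error only.

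Other alternatives were the pseudocount 5, no filter, at least 5 in every library, upper quartile scaling, a replicate block, only the groups compared, leaving out each library, and only members that are long noncoding or overlap no gene. The same replicate numbers did not deviate together, so that no pairing by number was taken. The correlations were -0.2 to 0.092 except between the cytoplasmic and nuclear extracts, at -0.514. In the extracts, replicates of the same number thus deviated in opposite directions. Whether cytoplasmic replicates belong with nuclear replicates of the other number is not stated in the sources used here. The limma fit was run on simulated counts with the same spread for all genes and few changed genes. These settings differ from the data here, so that no error rate is read from that run. The members, the lists and the rule were chosen with earlier results of these data known. The rule named the 4 highest members per group and the 6 largest differences each way per comparison, with a mean of at least 50 and no overlap in the mutants. Hairpin RNAs, hosts of microRNAs, overlapping genes, the remaining members higher in the nuclear extract and CR14033 were named after their values were seen, as were the muscle and neuron lists. Promoter motifs were not searched, since no promoter sequences were used here. Annotation came from BDGP6.54 and RefSeq Release 6.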

Additional observations from a re-analysis of the deposited data

Results flagged for a closer look

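The change in grp fs1 differed from the mean change in the Slbp groups in 16 members by limma, beside 35.7% of all genes. In log2 units of grp fs1 minus the Slbp mean, the lower ones were CR18854 (-3.51), CR42861 (-3.22), CR43309 (-1.77), CR32205 (-1.53), CR43496 (-1.14), CR43973 (-0.59), CR42549 (-0.50), CR14033 (-0.46) and CR43670 (-0.36). The higher ones were CR43685 (0.37), CR32027 (0.50), CR32207 (1.03), CR42862 (1.54), CR18217 (1.75), CR40469 (1.94, grp fs1) and CR43432 (3.04). CR18854 and CR42861 fell in grp fs1 and rose in both Slbp groups, and CR32207 did the reverse, each past the test in all 3 mutants. The rise of CR32207 in grp fs1 did not pass with upper quartile scaling. CR40469 also differed between Slbp 10/12 and Slbp 10/15, by 4.22. Its grp fs1 libraries, at 167 and 232 normalized counts, lay between those of Slbp 10/12, at 445 and 110.1. Both Slbp 10/15 libraries, at 6.59 and 17.8, lay below those of grp fs1. For CR43432 and CR42862 the grp fs1 libraries were 183 and 1156 and 699.8 and 2002 normalized counts, beside sarcomere sums of 32.7 and 4317, whose part was not tested. Without grp fs1 replicate 2 both calls ended, with values of 1.72 (adjusted p = 0.19) for CR43432 and 0.78 (adjusted p = 0.29) for CR42862, and the replicate block ended that of CR42862 (adjusted p = 0.067). The calls of CR43685 and CR32027 ended with edgeR, DESeq2 and upper quartile scaling. With 2 libraries per group no library could be tested for lying apart from its group.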

How the results depend on the processing

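Of 47 results for single genes or gene and comparison, 26 kept their direction and side of the threshold under every alternative, and 98 of 744 single values fell short of the threshold, none changing sign. Upper quartile scaling gave 14 and 6 calls in place of 22 and 6 for the cytoplasmic and nuclear extracts. Among all genes with an early mean of at least 50 the shares were 33.8% and 34.9% in place of 38.2% and 28.9%. It gave 10 calls between grp fs1 and the Slbp mean in place of 16, beside 20.6% of all genes in place of 35.7%. Its medians were -0.24 in place of -0.64 for nuclear minus cytoplasmic and 0.59 in place of 0.47 for late minus early. The median over all genes became 0.64 in place of 0.24 in the first of these. With at least 5 in every library, 20 of 42 members were called in Slbp 10/12, beside 35.1% of all genes. Between the Slbp groups 3 of the 42 were called, beside 9.47% of all genes. DESeq2 called 3 between the Slbp groups, the fit with only the groups compared 0 and the replicate block 2, in place of 1. Members that are long noncoding gave 18 calls in Slbp 10/12 and 24 in Slbp 10/15, and those that overlap no gene 8 for grp fs1, 8 for Slbp 10/12 and 12 for Slbp 10/15, since fewer members are counted. For the other shifts the cause was not tested. Leaving out 1 library gave 13 to 29 calls for grp fs1, 18 to 33 for Slbp 10/12, 17 to 39 for Slbp 10/15, 10 to 17 between grp fs1 and the Slbp mean, 0 to 1 between the Slbp groups and 14 to 30 between the extracts, with medians of -0.82 to -0.63 for nuclear minus cytoplasmic and 0.37 to 0.63 for late minus early. The replicate block gave 30, 31 and 38 calls in grp fs1 and the Slbp groups 10/12 and 10/15. Its shares of all genes were 42.1%, 47.8% and 58.1%. Between the extracts it gave 25 in place of 28, beside 51.9% of all genes. A crossed pairing of the extract replicates, added after the data were seen, gave 28. This was beside 61.4% of all genes, against 55.5% in the main fit. Depth limits the members near 5 normalized counts, which rest on few reads.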
